A study of Sus scrofa domesticus with 4 samples.

Results

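The genes described here encode proteins that uterine glands release into the lumen: ACP5, RBP4, LCN2, LTF, CLU, STC1, TF, CST3 and CST6. A probe was counted when it was no control and its accession led through RefSeq to one of these 9 symbols. This gave 18 of the 43603 probes on the array, for 8 of the 9 symbols, and CST6 had none. The symbol TF belongs to 2 porcine RefSeq genes, transferrin itself and a transferrin relative with the synonym PICA (porcine inhibitor of carbonic anhydrase). They are kept apart as TF and TF (PICA), so that the 18 probes stand for 9 genes. Of the 18 probes, 13 from 7 genes had enough signal to be tested, and 5 probes (2 of LTF and 3 of TF) did not. No tested gene differed between treated and untreated explants by more than the error of the test. On the brightest probe of each, the log2 ratio of treated over untreated ran from -0.47 (LCN2) to -0.13 (RBP4), and on single arrays it took both signs for every gene.

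The pig conceptus lives for weeks on histotroph, the mixture of nutrients, carriers and enzymes that endometrial glands secrete under progesterone. Several of these proteins carry something to the conceptus: uteroferrin (ACP5) and the transferrins carry iron, retinol-binding protein (RBP4) carries retinol, and lipocalin 2 (LCN2) binds iron-loaded siderophores. Others act on the secretion itself, as cystatin C (CST3) does by inhibiting cathepsins, clusterin (CLU) as an extracellular chaperone, and stanniocalcin 1 (STC1) as a glycoprotein hormone tied to calcium and phosphate handling.

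The study asked how orexin B, a hypothalamic peptide that is also made in peripheral tissue, acts on the endometrium. Explants of 3 mm thickness and about 100 mg came from 4 Large White x Polish Landrace gilts, 7 to 8 months old, on days 15 to 16 of gestation. After 2 h alone they stood for 24 h with 10 nM orexin B or with no addition, and both kinds of explant therefore went through the same culture. Each of the 4 two-colour arrays held treated RNA in one dye and untreated RNA in the other, and the dyes alternated: Cy5 marked the treated RNA of arrays 1 and 3, Cy3 that of arrays 2 and 4. Explants hold every cell type of the tissue, and no gland cells were isolated. The labels mention duplicate cultures and do not tie an animal to an array. The error used here is therefore the spread between the 4 arrays, drawn by limma towards that of all tested probes.

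In Cy3, 27.8% to 36.2% of spots were well above background, against 82.4% to 86.7% in Cy5 on arrays 1, 3 and 4 and 46.8% on array 2. Array 2 also came from another slide and another scan day than the other 3. Negative control spots had medians of 183 to 383 in Cy3 and 63 to 94 in Cy5, so a dim transcript was easier to see in Cy5. Markers of epithelium (EPCAM, CDH1, KRT8, CLDN3 and CLDN4) were measured above background, as were the stromal genes DCN, LUM, COL1A2 and POSTN, while the gland markers FOXA2 and MUC1 have no probe named here.

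ACP5 and RBP4 gave spots far above the negative controls in untreated explants, on every array. On the brightest ACP5 probe the untreated spot was 106 times the negative controls on array 1, 2800 times on array 2, 47.4 times on array 3 and 1960 times on array 4. The brightest RBP4 probe gave 69.9, 3660, 75.5 and 1630 times on arrays 1 to 4. The high values are those of arrays 2 and 4, where the untreated RNA carried Cy5, and the low ones are those of arrays 1 and 3, where it carried Cy3. For this reason levels are given from here on as log2 of the intensity after normalisation of the dyes within and between arrays. Such a level is set against other arrays for one probe, but not against other probes, which bind and label differently. A dye effect of the single probe stays in it. The SD of a level between arrays therefore includes that effect, which was largest on ACP5 probe 2 and RBP4 probe 3 (dye terms -0.83 and -0.72).

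**Figure D1:**
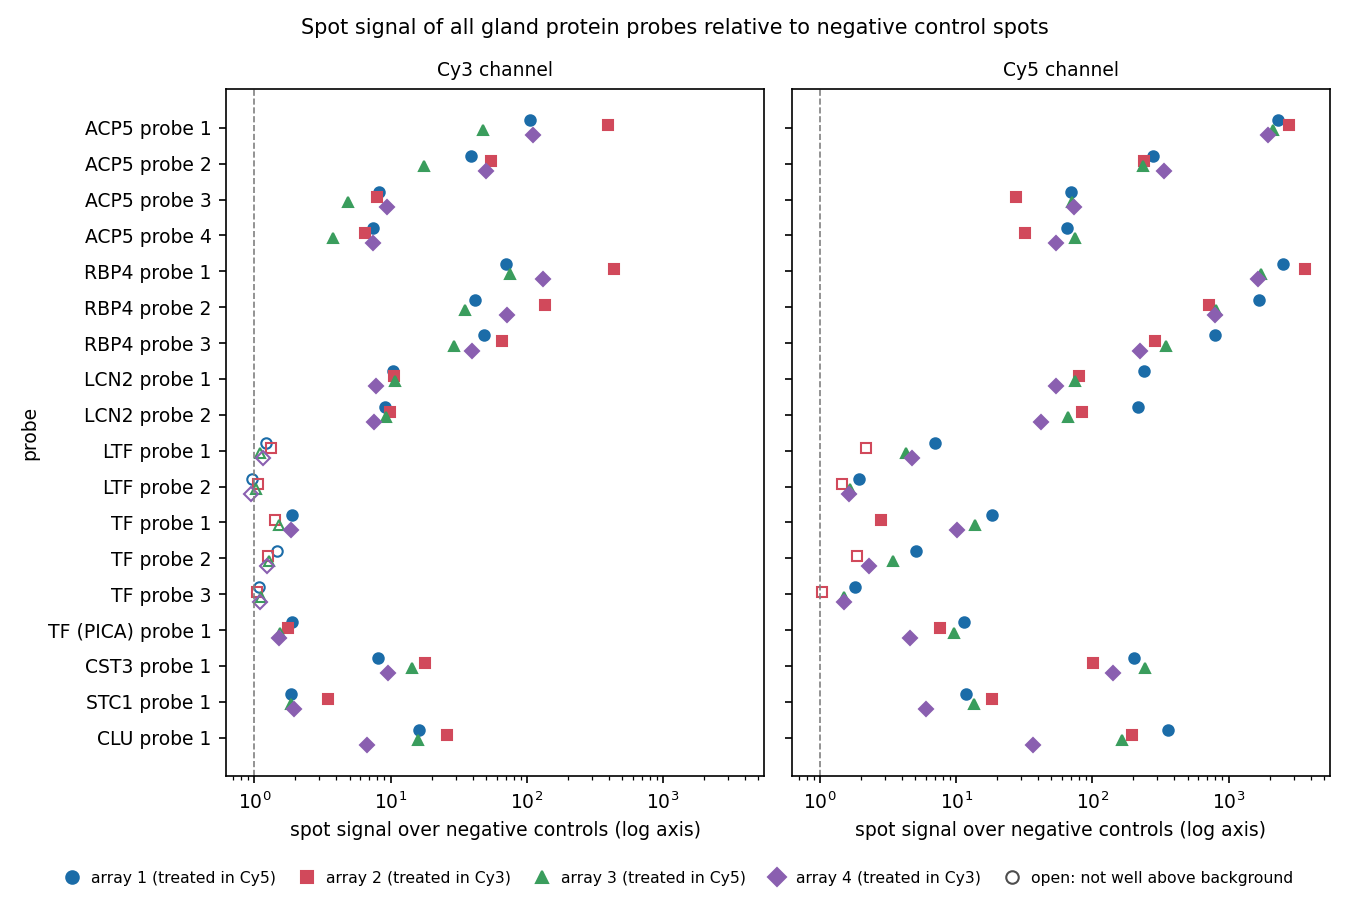
Median spot signal of each of the 18 gland protein probes divided by the median of the negative control spots of the same channel and array (log axis; left Cy3, right Cy5), with one symbol per array, filled where the spot was well above background. ACP5 probe 1 reaches 1960 to 2800 times the controls in Cy5, while the LTF probes lie between 0.94 and 6.95 times the controls over both channels.

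The 4 ACP5 probes had different spreads over the arrays. Uteroferrin is the purple acid phosphatase that gives pig uterine fluid its colour. Probe 1, the brightest, had untreated levels of 16.88, 16.28, 15.91 and 16.76 on arrays 1 to 4, a mean of 16.46 ± 0.45 (SD, n = 4). Its treated levels were 16.31, 16.29, 16.38 and 16.29, with an SD of 0.04. The treated values thus lay close together inside the range of the untreated ones, which were high on arrays 1 and 4 and low on array 3. The SD of the untreated level was 0.40 at the median of all 13781 tested probes, so the untreated spread of this probe was an ordinary one under this normalisation. With median centring of each array its untreated SD was 1.23. The other ACP5 probes had untreated means of 14.18 ± 0.66, 11.81 ± 0.77 and 11.60 ± 0.60 (SD, n = 4). Their treated SDs were 0.82, 0.56 and 0.55, so the narrow treated spread was that of probe 1 and not of the gene.

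The log2 ratio of treated over untreated on ACP5 probe 1 was -0.57, 0.01, 0.47 and -0.47 on arrays 1 to 4, so 2 arrays were above 0 and 2 below. The fitted ratio, with a separate term for the dye, was -0.14 ± 0.23 (SE of the limma fit, n = 4; 95% interval -0.68 to 0.39), which in linear terms is 0.906 times untreated with an interval from 0.625 to 1.31. Probe 2 stood at -0.40 ± 0.21, probe 3 at -0.26 ± 0.20 and probe 4 at -0.23 ± 0.24. None of the 4 passed the test (limma, adjusted p = 0.999 for each, Benjamini-Hochberg over all tested probes), and for each the treated and untreated levels overlapped. The sign of the probe 1 ratio rests on array 1, without which it stood at 0.12. That ratio also turned with median centring of each array (0.28, equal to the median of all probes there). With treated RNA read as Cy5 on all arrays it was 0.09. The mean over the 4 ACP5 probes was -0.26.

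Probes of ACP5 gave different answers on single arrays. On array 1 all 4 were below 0, from -1.71 on probe 2 to -0.57 on probe 1. On array 3 they were split, with probes 1 and 4 at 0.47 and 0.40 and probes 2 and 3 at -0.75 and -0.14. Probe 2, at -1.71, 0.27, -0.75 and 0.59 on arrays 1 to 4, was below 0 wherever the treated RNA was in Cy5 and above 0 wherever it was in Cy3. Its dye term was -0.83 ± 0.21 (SE; limma, adjusted p = 0.29 for the dye term), larger than its treatment ratio. With each probe's own dye term taken out, all 4 probes were lowest on array 1 (-0.88 to -0.66) and highest on array 3 (0.08 to 0.41). This removal makes the mean of arrays 1 and 3 equal to that of arrays 2 and 4 by construction, and it leaves the gap between arrays 1 and 3 as it was.

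RBP4, the plasma and uterine carrier of retinol, had untreated levels of 16.21, 16.61, 16.64 and 16.50 on its brightest probe, a mean of 16.49 ± 0.20 (SD, n = 4). Treated levels were 16.41, 16.40, 16.09 and 16.53, which lie across the same range. The ratios on arrays 1 to 4 were 0.20, -0.21, -0.55 and 0.03, and the fit gave -0.13 ± 0.20 (SE, n = 4; 95% interval -0.60 to 0.34). The other 2 probes had untreated means of 15.22 ± 0.35 and 14.44 ± 0.88 (SD, n = 4). On probe 3 the untreated level was 15.52 and 14.8 in Cy3 (arrays 1 and 3) but 13.63 and 13.83 in Cy5 (arrays 2 and 4). The mean level of both channels was 15.17 and 14.26 on arrays 1 and 3, against 13.79 and 14.21 on arrays 2 and 4. Treated levels of probe 3 did not divide by dye, at 14.81 and 13.72 in Cy5 and 13.95 and 14.59 in Cy3. The untreated SD of probe 3 thus mixes differences between arrays with a dye effect. Probe 2 stood at 0.10 ± 0.20 and probe 3 at -0.17 ± 0.18, so that RBP4 was, among the 3 genes with several tested probes, the 1 whose probes differed in sign. No RBP4 probe passed (limma, adjusted p = 0.999 for each), and without array 3 the ratio of probe 1 was 0.06. With median centring it was 0.28, again equal to the median of all probes under that setting.

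RBP4 probe 3 alternated with the dye as ACP5 probe 2 did. Its ratios were -0.70, 0.33, -1.08 and 0.76, below 0 with treated RNA in Cy5 and above 0 with treated RNA in Cy3, and its dye term was -0.72 ± 0.18 (SE; limma, adjusted p = 0.29 for the dye term). Its ratios ran over 1.84 log2 units as measured and over 0.43 with the dye term taken out, against 0.75 and 0.75 on probe 1. After that removal the 3 probes lay between 0.01 and 0.49 on array 1 and between -0.51 and -0.29 on array 3. Arrays 1 and 3, which share dye orientation, slide and scan day, thus stood in opposite order for the 2 genes: all 4 ACP5 probes had the lower ratio on array 1, and all 3 RBP4 probes had it on array 3.

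**Figure D2:**
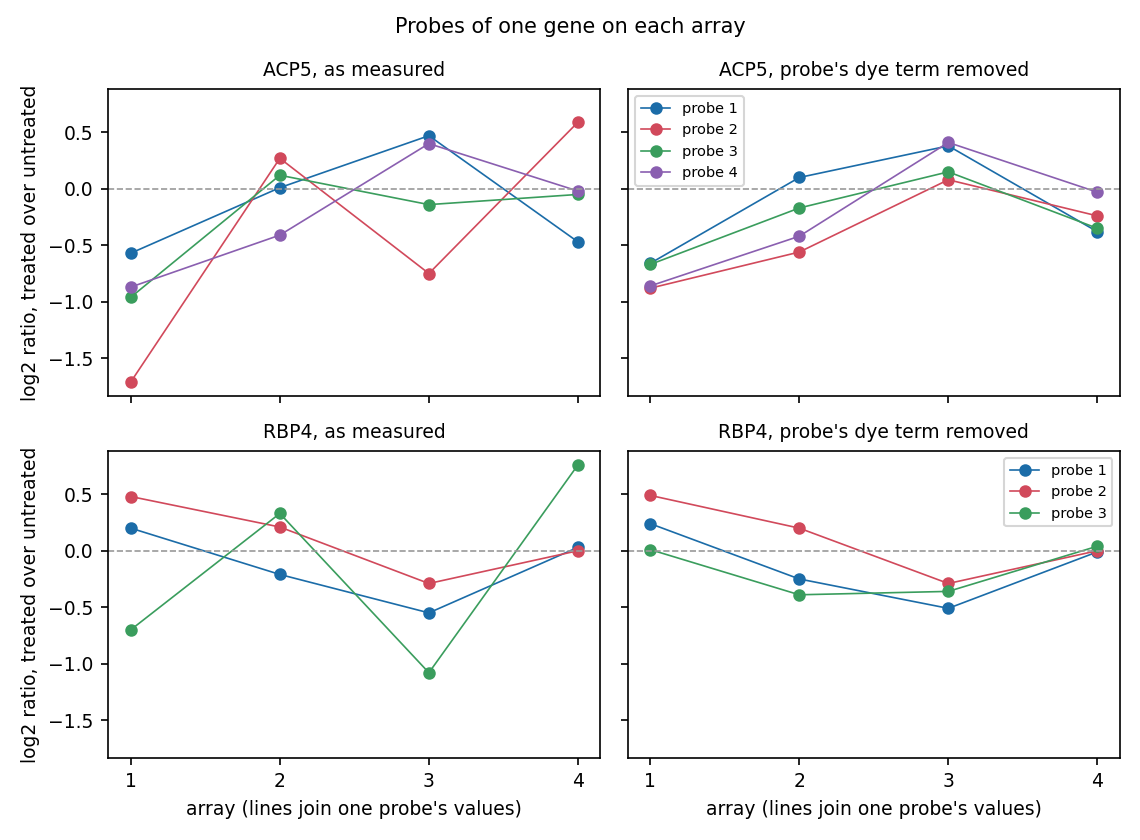
Log2 ratio of treated over untreated (y axis) on arrays 1 to 4 (x axis) for the 4 ACP5 probes (top) and the 3 RBP4 probes (bottom), as measured (left) and with each probe's fitted dye term removed (right), where lines join the values of one probe. ACP5 probe 2 and RBP4 probe 3 alternate in sign with the dye on the left, and on the right all ACP5 probes are lowest on array 1 and highest on array 3.

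LCN2 encodes a lipocalin of epithelia and of neutrophil granules. Its 2 probes had untreated levels of 12.92, 12.11, 13.03 and 11.86 (probe 1) and 12.73, 12.20, 12.77 and 11.50 (probe 2) on arrays 1 to 4. Treated levels on probe 1 were 13.16, 11.32, 11.62 and 11.95, so that array 1 alone had a treated level above 12. The ratios of probe 1 were 0.24, -0.79, -1.40 and 0.08, and those of probe 2 were 0.31, -0.99, -1.32 and 0.34. Both probes therefore split the arrays in the same way, with arrays 2 and 3 well below 0 and arrays 1 and 4 above it. The cause of this split was not tested. The fitted ratios were -0.47 ± 0.30 (SE, n = 4; 95% interval -1.17 to 0.24) and -0.41 ± 0.33, and neither passed (limma, adjusted p = 0.999 for each). Without array 3 the ratio of probe 1 was -0.06 and without array 2 it was -0.25, while without arrays 1 and 4 in turn it was -0.88 and -0.69.

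LTF encodes lactoferrin, an iron-binding protein of secretions and of neutrophil granules, and TF encodes transferrin, the iron carrier of plasma. Neither gave a testable signal. Both LTF probes were well above background in 3 of 8 channels, all 3 of them Cy5 (1 untreated and 2 treated), and in 0 of 4 Cy3 channels. On LTF probe 1 the untreated spot was 1.21, 2.17, 1.10 and 4.77 times the negative controls on arrays 1 to 4, and the treated spot 6.95, 1.33, 4.31 and 1.16 times. The higher values are those of Cy5 in both conditions. TF probes 2 and 3 had the same pattern of 3 channels in Cy5 and none in Cy3, while TF probe 1 was above background in 6 of 8 channels, with untreated spots at 1.88, 2.82, 1.53 and 10.2 times the negative controls. When the filter was dropped, the 5 probes had ratios between -0.20 and 0.02, with SEs of 0.12 to 0.15 (limma, adjusted p from 0.926 to 0.988). Close to background a change is compressed, so these ratios do not bound the change of either transcript.

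TF (PICA) encodes a transferrin relative that inhibits carbonic anhydrase. Its single probe was above background in 7 of 8 channels, missing the untreated Cy3 channel of array 3, and it entered the test through the treated channels. In Cy3 its spots were only 1.89, 1.78, 1.55 and 1.51 times the negative controls on arrays 1 to 4. Its ratios may therefore be compressed as well. Untreated levels were 9.65, 9.54, 9.06 and 8.47 on arrays 1 to 4 and treated levels 9.31, 8.61, 8.88 and 8.6. The ratios were -0.34, -0.93, -0.18 and 0.13, so 3 arrays were below 0 and array 4 above it. The fit gave -0.33 ± 0.22 (SE, n = 4; 95% interval -0.85 to 0.19; limma, adjusted p = 0.999), and with treated RNA read as Cy5 on all arrays the value was 0.07.

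CST3 encodes cystatin C, a secreted inhibitor of cathepsins. Untreated levels were 12.51, 12.39, 13.62 and 13.23 on arrays 1 to 4, and treated levels were 12.96, 12.08, 13.26 and 12.35. Array 1 was the one array with more treated than untreated signal, and its ratio of 0.45 stood against -0.31, -0.36 and -0.88 on arrays 2 to 4. The fit gave -0.28 ± 0.21 (SE, n = 4; 95% interval -0.78 to 0.23; limma, adjusted p = 0.999). Its dye term of 0.32 was larger than the treatment ratio. With treated RNA read as Cy5 on all arrays the value was therefore 0.32, and with median centring it was 0.13.

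STC1 was above background in every channel, but in Cy3 by little: the Cy3 spot was 1.86, 3.46, 1.87 and 1.94 times the negative controls on arrays 1 to 4. The untreated spot, in Cy5 on arrays 2 and 4, was 1.86, 18.5, 1.87 and 6 times the controls. Its ratios may therefore be compressed as well. Its untreated levels were 9.62, 10.40, 9.57 and 8.74, and its treated levels were 9.34, 9.64, 9.28 and 9.22. As on ACP5 probe 1, the treated values spread less (range 0.42) than the untreated ones (range 1.66). Such spreads depend on the normalisation: without scaling between arrays the untreated SD was 0.47, against 0.68. The ratios were -0.27, -0.76, -0.29 and 0.48, with a fit of -0.21 ± 0.24 (SE, n = 4; 95% interval -0.77 to 0.34; limma, adjusted p = 0.999). Without array 2 the ratio was 0.10.

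CLU had the widest range between arrays among the tested gland probes. Untreated levels were 13.67, 13.19, 13.74 and 11.30 on arrays 1 to 4, a range of 2.45 log2 units against a median range of 0.88 over all tested probes. The treated level was also lowest on array 4, at 13.70, 12.60, 12.71 and 11.64 on arrays 1 to 4. The mean of both channels ran over 2.22 units between arrays, where 95% of all tested probes stayed under 1.71. Array 4 was thus low in both conditions. The ratios were 0.03, -0.59, -1.03 and 0.34, and the fit gave -0.31 ± 0.25 (SE, n = 4; 95% interval -0.91 to 0.28; limma, adjusted p = 0.999). Without array 3 the value was -0.05, and with median centring it was 0.15.

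**Figure D3:**
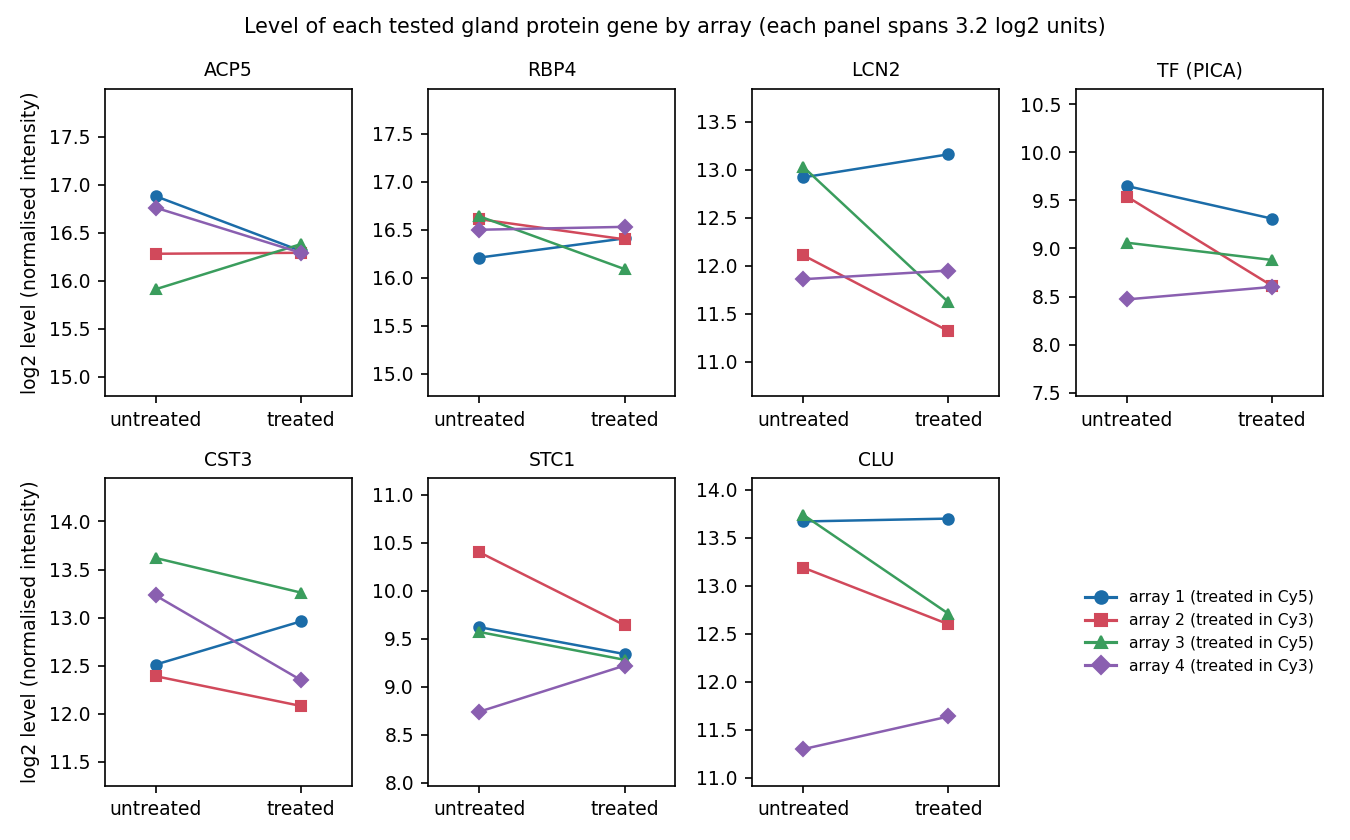
Normalised log2 level (y axis) of each tested gland protein gene on its brightest tested probe, in untreated and treated explants (x axis), where a line joins both channels of one array and every panel spans 3.2 log2 units. Treated and untreated levels overlap in all 7 panels, and for CLU array 4 lies below the other arrays in both conditions.

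For the 7 tested genes together, the brightest probe of each had a ratio below 0 (7 of 7), against 46.9% of all tested probes, and the median was -0.28 against 0.02 for all tested probes. With median centring 3 of the 7 were below 0 and 5 of 7 below the median of all probes, the gland median being 0.13 against 0.28. With treated RNA read as Cy5 on all arrays 4 of 7 were below 0 and the gland median was -0.04 against -0.05 for all probes. Over all probes of these genes 12 of 13 were below 0, but probes of one gene are not independent. The gland median on single arrays was 0.03, -0.59, -0.36 and 0.08 on arrays 1 to 4, where all tested probes had medians of -0.03, 0.06, 0.01 and 0.02. So arrays 2 and 3, which differ in dye orientation, slide and scan day, were low (6 of 7 genes below 0 on each). Arrays 1 and 4 were not (3 and 2 of 7). What set these arrays apart was not tested. Without array 2, which leaves the arrays of a single slide and scan day, the gland median was -0.08, without array 3 it was -0.07, and without arrays 1 and 4 in turn it was -0.32 and -0.52.

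**Figure D4:**
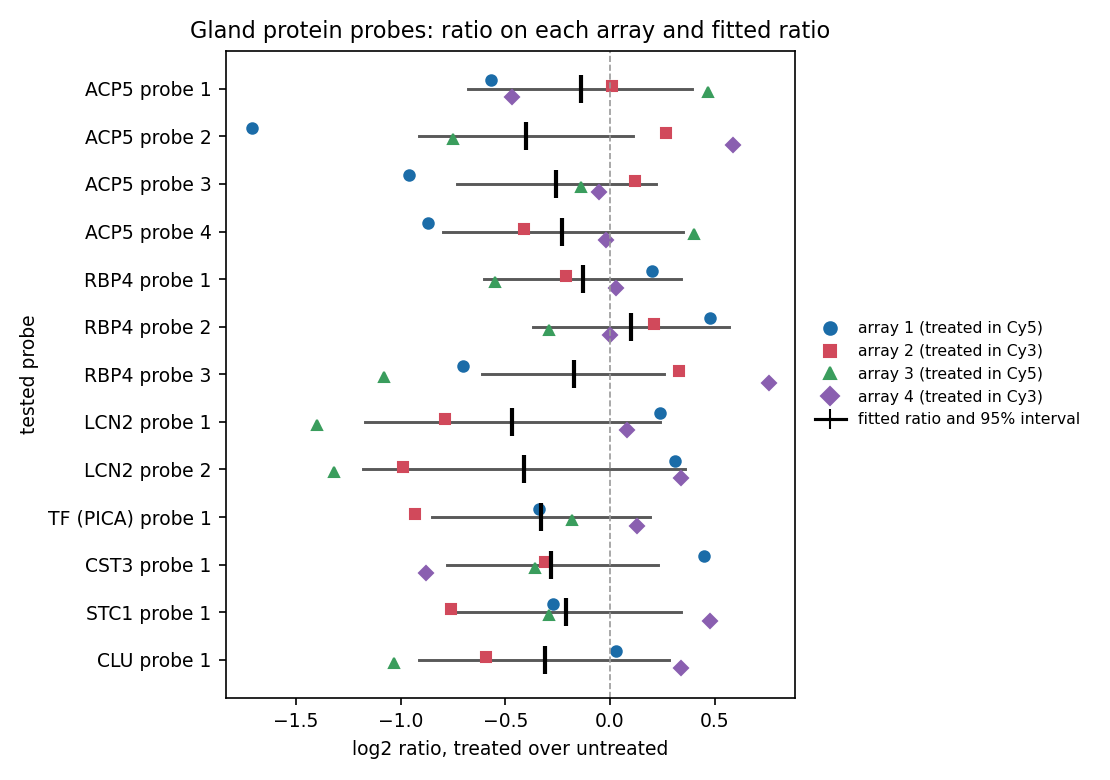
Log2 ratio of treated over untreated (x axis) for the 13 tested gland protein probes (y axis), with one symbol per array, a vertical tick for the fitted ratio with the dye term taken out, and a line for its 95% interval. Every interval includes 0, and each probe has arrays on both sides of 0.

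No tested probe of these genes was called (0 of 13; limma, adjusted p under 0.05), where 0% of all tested probes were called. At an unadjusted p under 0.05 there were again 0 of 13, against 3.60% of all tested probes. Array ratios of one sign on 4 of 4 arrays occurred in 0 of 13 probes, against 7.30% of all, and levels that did not overlap in 0 of 13, against 0.486%. The dye term had an unadjusted p under 0.05 in 2 of 13 probes (ACP5 probe 2 and RBP4 probe 3), against 14.2% of all, and it was larger than the treatment ratio in 4 of 13, against 64.0%. The widest 95% interval among the brightest probes, that of LCN2, still allowed a level from 0.443 to 1.18 times untreated. Changes of that size were therefore not resolved by 4 arrays with 2 residual degrees of freedom.

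**Figure D5:**
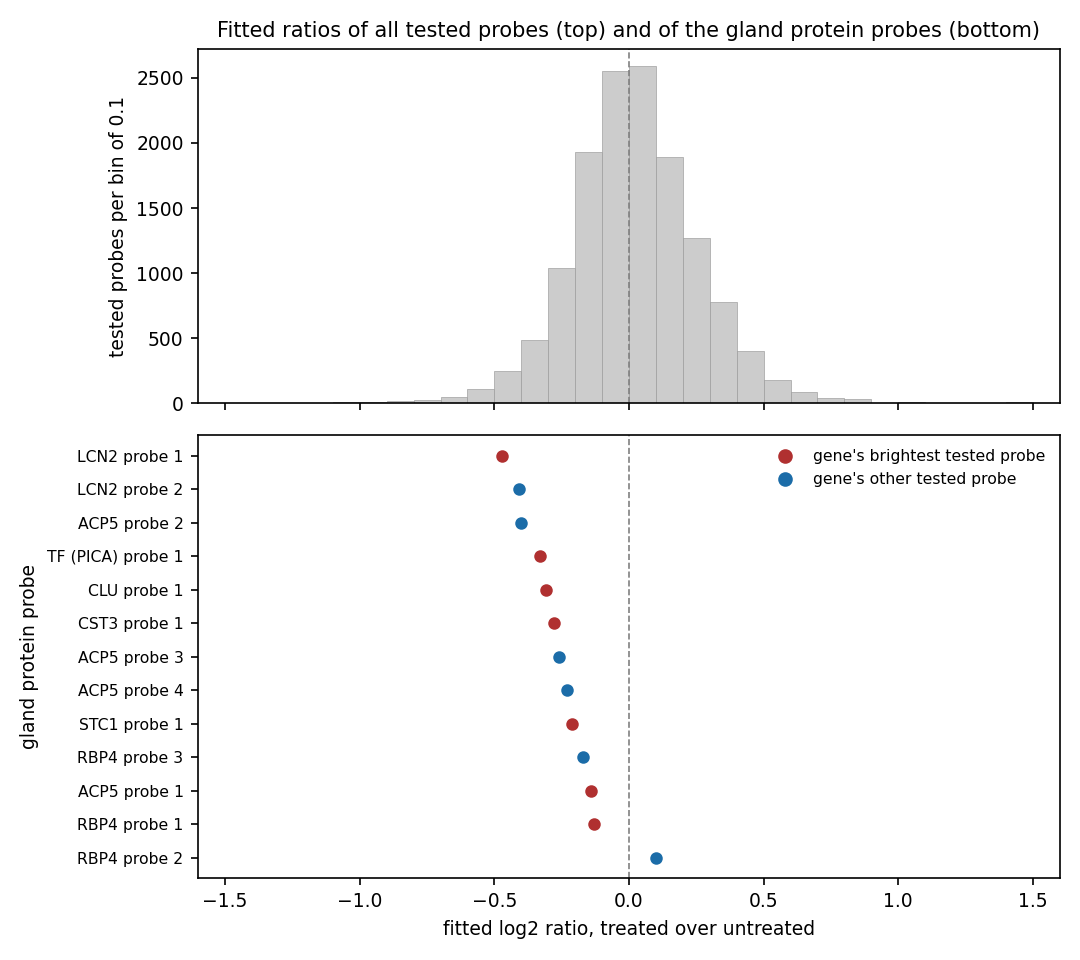
Number of tested probes per bin of 0.1 of the fitted log2 ratio of treated over untreated (top, bars) and the fitted ratios of the 13 gland protein probes (bottom, points). All points lie between -0.47 and 0.10, with LCN2 probes 1 and 2 and ACP5 probe 2 below the 5th percentile of all tested probes (-0.34), and 12 of 13 lie below 0, which under median centring holds for 5 of 13.

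Markers of the cells that make these proteins moved between arrays as well. In a bulk explant, fewer cells of a type and less RNA per cell cannot be told apart. Of 12 epithelial markers 5 were tested, 1 above 0 and 4 below, with a median of -0.26. Array by array their median was -0.77, -0.65, -0.43 and 0.61. The log2 of their summed intensity was 15.95 to 17.07 in untreated and 15.64 to 16.60 in treated explants. None of the 5 was at background, and KRT18, KRT19, KRT7, FOXA2, MUC1, ESRP1 and ELF3 have no probe named here. CLDN3 stood at -0.54 ± 0.21 and CLDN4 at -0.51 ± 0.22 (SE, n = 4; both tight junction claudins). EPCAM stood at -0.26 ± 0.24, CDH1 at -0.12 ± 0.26 and KRT8 at 0.35 ± 0.32. The dye term was larger in size than the ratio on CLDN3 (-0.70) and CDH1 (-0.47). The part of the epithelial share in the gland ratios was not tested.

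LCN2 and LTF are also neutrophil products, and ACP5 is also made by macrophages. Of 10 neutrophil markers 3 were tested, 1 above 0 and 2 below (median -0.17). S100A8 stood at -0.73 ± 0.25 and S100A12 at 0.29 ± 0.26 (SE, n = 4; calcium-binding proteins of myeloid cells). On S100A12 the dye term of 0.95 was larger than the ratio. For the neutrophil markers the log2 of the summed intensity was 10.7 to 13.45 untreated and 11.48 to 12.32 treated. FCN1 and PGLYRP1 were not above background, and MPO and ELANE have no probe named here. Of 11 macrophage markers 6 were tested, 2 above 0 and 4 below (median -0.27), with MRC1 and C1QC not above background. The log2 of the summed intensity of these markers was 12.79 to 14.09 untreated and 12.71 to 13.35 treated. AIF1, a macrophage calcium-binding protein, stood at -0.59 ± 0.26 (SE, n = 4). LYZ, CD14 and C1QA stood at -0.68 ± 0.25, -0.42 ± 0.20 and -0.12 ± 0.19. CD163 and C1QB were above 0, at 0.18 ± 0.22 and 0.06 ± 0.24. The part of these cells in the ratios of LCN2 and ACP5 was not tested.

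Stromal markers stood at a median of 0.22 (4 of 4 tested above 0, led by the matrix protein gene POSTN at 0.59 ± 0.20 and by DCN at 0.23 ± 0.19). Smooth muscle markers had a median of -0.21 (3 of 3 below 0) with DES at -0.53 ± 0.38 and CNN1 at -0.21 ± 0.19. The dye terms of DES and CNN1 (0.85 and 0.28) were larger in size than their ratios. Endothelial markers had a median of -0.34 (3 of 3 below 0) with CDH5 at -0.39 ± 0.17 and PECAM1 at -0.34 ± 0.27. Of the red cell and plasma markers only APOA1 was tested, at -0.03 ± 0.17. Of the conceptus markers TFAP2C stood at 1.14 ± 0.19, a gene that epithelia also express, and IL1B2, the conceptus interleukin, at -0.42 ± 0.18. In all 8 marker lists 0 genes were called (limma, adjusted p under 0.05 over all probes; ± is the SE of the fit, n = 4), and with median centring the median of all tested probes itself moved from 0.02 to 0.28.

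Other gland products and their regulators did not stand on one side. Of 43 such genes 18 were tested, 11 above 0 and 7 below, with a median of 0.09 and 0 called (limma). UABP-2, a uterine serpin gene whose product binds uteroferrin, had ratios of -0.42, -0.37, 0.07 and -0.60 on arrays 1 to 4 and a fit of -0.33 ± 0.18 (SE, n = 4; 95% interval -0.76 to 0.10). Its value was below 0 on 3 of 4 arrays and above 0 on array 3. The genes with the largest moderated t were LYZ, the lysozyme gene, at -0.68 ± 0.25, and LGALS3, a galectin gene, at 0.63 ± 0.26 (SE, n = 4). On LGALS3 the dye term of 0.78 was larger than the ratio.

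Partners of the iron carriers had ratios on both sides of 0. Of 19 iron genes 8 were tested, 3 above 0 and 5 below (median -0.04, 0 called by limma). The ferritin subunit genes FTH1 and FTL, whose products store iron, stood at 0.06 ± 0.23 and -0.08 ± 0.25 (SE, n = 4). Their dye terms (0.77 and 0.09) were larger in size than their ratios. B2M, the partner of the HFE protein, was at -0.40 ± 0.19, and SLC11A1, a phagosomal metal transporter gene, at 0.37 ± 0.26. TFRC, the receptor of transferrin, had a probe but was not above background.

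The retinol and uptake lists were thinly covered. Of 20 retinoid genes 4 were tested, 2 above 0 and 2 below (median -0.03, 0 called by limma), with CRABP1, a cellular retinoic acid binding protein gene, at -0.10 ± 0.17 (SE, n = 4). STRA6, the membrane receptor of RBP4, stood at -0.06 ± 0.17. The clusterin receptor gene LRP8 stood at -0.07 ± 0.19, and these receptors were the 2 tested of 15 uptake receptors, both below 0 (median -0.07, 0 called). TTR, the plasma partner of RBP4, was not above background.

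Among cystatins and their lysosomal targets 8 of 18 genes were tested, 2 above 0 and 6 below (median -0.08, 0 called by limma). CTSZ and CTSA, a cysteine carboxypeptidase and a serine carboxypeptidase of lysosomes, stood at -0.53 ± 0.19 and -0.31 ± 0.21 (SE, n = 4). CTSB and CTSH, cysteine cathepsins that cystatin C inhibits, stood at -0.03 ± 0.23 and -0.22 ± 0.20. CSTB, the intracellular cystatin B, stood at 0.02 ± 0.21, and in RefSeq it carries CST6 as an older name without being the secreted cystatin E/M.

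Of 16 genes of calcium or phosphate handling 3 were tested, 2 above 0 and 1 below (median 0.21, 0 called by limma), with IGFBP5, an insulin-like growth factor binding protein gene, at 0.56 ± 0.27 (SE, n = 4; dye term 1.07) and PTHLH at -0.19 ± 0.20. STC2, the paralogue of STC1, was not above background. Of 15 acid phosphatases, lipocalins and related fatty acid binding proteins 3 were tested, 1 above 0 and 2 below (median -0.07, 0 called). FABP5 stood at -1.39 ± 0.26 and FABP3 at 0.61 ± 0.32, where the dye term of FABP3 was also 0.61. The lipocalin PTGDS was not above background.

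For each tested gene, the 2 genes with the nearest array profile were sought among 1596 named genes with a value on 4 of 4 arrays, by the root-mean-square difference of the 4 log2 ratios. RBP4 lay closest to TOB1 (0.03) and RSC1A1 (0.04), and CST3 to CD82 (0.03) and COX7A1 (0.13). TF (PICA) lay closest to EFNA1 (0.09) and OAT (0.12), and STC1 to ITGA2 (0.13) and MFSD6 (0.14). CLU was nearest to ADM5 (0.15) and to IGFBP3 (0.19), an insulin-like growth factor binding protein gene with ratios of 0.14, -0.48, -0.69 and 0.39 on arrays 1 to 4. ACP5 was nearest to SRSF10 and SIRT1 (0.15 each), and LCN2, whose profile was the least matched, to CREB3 (0.26) and SAA3 (0.32), the acute phase gene serum amyloid A3. The likeness is a description over 4 arrays, and a flat profile finds close neighbours more easily than a wide one.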

How the data were processed

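Per the file headers, the deposited spot intensities of both channels are output of Agilent Feature Extraction, version 10.7.3.1, for design 026440. The same files hold a log10 ratio of Cy5 over Cy3, corrected by the scanner software, per the file headers. The authors' deposited value table gives the log2 of treated over untreated signal, for which arrays 2 and 4 had been turned (correlation of -1 with the scanner ratio over spots where it is not 0, and 1 on arrays 1 and 3). Its columns are not centred (medians 0.18, 0.29, 0.01 and 0.03).

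Median spot signals, taken because mean signals are not among the columns used here, were background-corrected by normexp (offset 50) and normalised by loess within arrays, giving no weight to controls and outliers (limma 3.58.1, R 4.3.3). Outlier spots were left out and spots of a probe averaged. Tests were run on probes that stood well above background on 4 of 4 arrays in at least 1 condition and had values on at least 3 arrays, which left 13781 probes (11140 above background in every channel). A treatment and a dye term were fitted by lmFit and eBayes of limma, with 2 residual and 5.09 prior degrees of freedom. P-values are two-sided and adjusted by Benjamini-Hochberg over all tested probes. Levels are log2 intensities after Aquantile scaling between arrays. The procedure was tested on simulated data. No spot was saturated.

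Probes were named through RefSeq accessions without versions (assembly Sscrofa11.1), which named 6700 probes. A gene's value is that of the brightest probe tested. The labels of each array give the dye of each RNA, and the authors' values were turned on the same arrays 2 and 4. The labelling text shared by the samples could mean Cy3 for the untreated RNA of every array, and this reading is an alternative. For a probe with values on 4 of 4 arrays, its ratio under that reading equals its dye term in the main fit. Such a ratio cannot be told apart from a dye effect. The other alternatives changed the background, starting values, normalisation, filter, dye term, outliers, weights, probe choice and replicates. Named genes are all members, the 2 nearest profiles of each, the 2 genes of each list with the largest moderated t, and binding partners, receptors or inhibited enzymes of members. Other genes are named after their values were seen or to say what was measured. The members and gene lists were chosen with earlier results of these data known. One gene that this rule would name is not reported here. No sequences are shown.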

Additional observations from a re-analysis of the deposited data

How the results depend on the processing

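No probe was called for treatment in 14 of 15 alternatives. Leaving out an array in turn gave 0 to 15 calls, the 15 (12 higher, none of a gland gene) coming without array 2. Dye term calls rose from 0 to 6867 with median centring (8 of the 13 gland probes), and were 0 to 6 when an array was left out. The gland median of -0.28 moved to 0.13 with median centring, where all probes had 0.28, and to between -0.52 and -0.07 when an array was left out. It kept its sign in the other alternatives, at -0.04 with treated RNA read as Cy5 on all arrays and between -0.28 and -0.24 otherwise. Of the single-gene values 10 changed sign and 101 did not. With median centring these were ACP5 (0.28), RBP4 (0.28), CLU (0.15) and CST3 (0.13). With treated RNA read as Cy5 throughout they were ACP5 (0.09), CST3 (0.32) and TF (PICA) (0.07). Leaving out an array turned ACP5 (-0.40 to 0.12), RBP4 (-0.32 to 0.06) and STC1 (-0.52 to 0.10), but not LCN2 (-0.88 to -0.06), CLU (-0.58 to -0.05), CST3 (-0.48 to -0.07) or TF (PICA) (-0.60 to -0.06). The cause was not tested. The untreated RBP4 level was 16.28 with median centring, against 16.49. Median centring raised the SD of the untreated level for ACP5 (0.45 to 1.23), RBP4 (0.20 to 1.14) and CST3 (0.59 to 0.81). It lowered that SD for LCN2 (0.58 to 0.08), CLU (1.15 to 0.74) and TF (PICA) (0.54 to 0.45), with STC1 at 0.68 and 0.69. The spreads of levels are therefore tied to the normalisation. An alternative chosen after seeing the data, with negative controls as background, gave a gland median of -0.28 and 0 calls. Without array 2 the arrays share slide and scan day, and a block for these gives the same fit. The ratio pairs both conditions within each array, and no further block by animal was fitted because the labels tie no animal to an array. LTF and TF are limited by signal over background, and so are TF (PICA) and STC1 in Cy3.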
